A study of Mus musculus with 20 samples.

Results

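The 44 genes described here encode proteins that copy DNA, control entry into S phase or carry out mitosis. They were taken by symbol from the deposited table of gene counts, which held all 44 among its 32245 symbols. The genes were split by role into 14 replication genes, 12 genes of G1 and S control and 18 mitosis genes. All 44 had enough counts to be tested, among 15373 genes tested in all.

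The table came from hippocampal granule cells of mice with Rbp4-Cre and the RiboTag allele, in which Cre adds an HA epitope to the ribosomal protein RPL22. RNA bound to tagged ribosomes was pulled out of the lysate with anti-HA magnetic beads and its poly-adenylated part was sequenced, and the labels give the same alleles to all groups. The groups are 6 postnatal ages: P5 with 5 libraries, then P7, P10, P15, P21 and P28 with 3 each. The P10 and P15 libraries share batch A with 3 of the P5 libraries, the P7 libraries share batch B with the other 2, and P21 and P28 make up batch C. The tag marks cells in which Rbp4-Cre has acted rather than granule cells alone, and no library of the unselected lysate was used here. Since no label states that each library is its own animal, p-values measure the spread between these libraries, which may be technical.

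A dividing cell passes through G1, S, G2 and mitosis. In G1, D-type cyclins with CDK4 and CDK6, followed by cyclin E with CDK2, phosphorylate the retinoblastoma protein RB1 and release E2F factors, which switch on genes of DNA synthesis. CDC6 and CDT1 load the ring of MCM2 to MCM7 onto DNA, where it becomes the helicase of the replication fork. Genes of G2 and mitosis are held down in resting cells through a promoter element called the CHR, often found with CCAAT boxes. Granule cells of the dentate gyrus arise from dividing progenitors largely after birth in mice, and a granule neuron does not divide again.

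The promoters of members that fell, and of members that moved the other way, are shown first because the gene groups differed in their promoter letters. RefSeq promoter windows (build GRCm38.p6, 250 bases before to 50 after a gene's start) were found for 34 of the 44 members, in 38 windows. Mcm4, Gmnn, Ccnd1, Ccnd2, Ccne2, Rb1, Ccna2, Aurkb, Tpx2 and Smc4 had none. Each sequence below reads 5′ to 3′ on the gene's own strand, and capitals mark matches on either strand. The words searched were TTCCCGC and TTGGCGC, with the further words TTCGCGC and TTGCCGC, for E2F, TTTGAA or TTCGAA for the CHR, and CCAAT for the CCAAT box. Cdk1 (chr10:69352863-69353162, minus strand) encodes the mitotic kinase and holds all 3 kinds, Ccnb2 (chr9:70421505-70421804, minus strand) encodes a mitotic cyclin and holds the CHR with CCAAT boxes.
Cdk1: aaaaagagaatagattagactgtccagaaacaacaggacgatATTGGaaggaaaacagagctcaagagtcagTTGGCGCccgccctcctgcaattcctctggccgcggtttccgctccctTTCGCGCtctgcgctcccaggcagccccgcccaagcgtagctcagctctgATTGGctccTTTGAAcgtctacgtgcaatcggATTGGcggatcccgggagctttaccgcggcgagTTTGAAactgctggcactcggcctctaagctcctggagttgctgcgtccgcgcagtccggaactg
Ccnb2: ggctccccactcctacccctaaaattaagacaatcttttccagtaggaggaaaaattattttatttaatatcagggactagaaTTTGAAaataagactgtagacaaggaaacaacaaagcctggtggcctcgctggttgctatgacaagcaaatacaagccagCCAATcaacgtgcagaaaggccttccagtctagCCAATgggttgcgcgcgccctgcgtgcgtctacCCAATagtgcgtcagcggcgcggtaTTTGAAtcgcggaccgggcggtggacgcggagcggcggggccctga

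Mcm3 and Mcm6 encode subunits of the same helicase ring, and their levels moved in opposite directions in these libraries. Both windows hold E2F letters and CCAAT boxes, and neither holds the CHR. The window of Mcm3 is chr1:20820263-20820562 and that of Mcm6 is chr1:128359656-128359955, both on the minus strand. E2F words overlap each other in both, since TTGGCGC read on one strand shares letters with a word read on the other.
Mcm3: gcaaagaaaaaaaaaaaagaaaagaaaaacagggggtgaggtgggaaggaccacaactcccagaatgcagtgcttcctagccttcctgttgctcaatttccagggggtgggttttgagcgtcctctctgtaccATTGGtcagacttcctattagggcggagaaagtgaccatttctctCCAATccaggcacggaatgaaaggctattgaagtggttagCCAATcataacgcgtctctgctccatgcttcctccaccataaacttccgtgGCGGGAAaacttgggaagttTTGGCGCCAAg
Mcm6: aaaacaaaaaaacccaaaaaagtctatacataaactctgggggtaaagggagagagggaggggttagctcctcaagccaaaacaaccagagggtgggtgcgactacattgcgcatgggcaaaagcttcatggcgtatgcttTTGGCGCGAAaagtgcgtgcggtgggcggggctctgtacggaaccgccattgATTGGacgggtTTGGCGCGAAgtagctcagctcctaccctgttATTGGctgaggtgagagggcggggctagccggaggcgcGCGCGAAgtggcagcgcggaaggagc

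The window of Ccne1, which encodes the G1 and S cyclin E1 and rose with age, holds none of the 3 (chr7:38107441-38107740, minus strand).
Ccne1: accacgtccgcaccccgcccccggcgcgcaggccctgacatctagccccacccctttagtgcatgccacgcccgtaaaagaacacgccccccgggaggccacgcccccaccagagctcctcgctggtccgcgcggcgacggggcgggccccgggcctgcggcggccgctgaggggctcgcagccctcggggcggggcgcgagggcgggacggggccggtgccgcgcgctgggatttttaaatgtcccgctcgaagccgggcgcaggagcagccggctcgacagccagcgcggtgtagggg

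E2F letters were in 11 of 14 windows of replication genes (78.6%), 3 of 14 windows of mitosis genes (21.4%) and 1 of 10 windows of G1 and S control genes (10%), against 9.57% of all 32851 windows in the table. The CHR showed the other order, with 11 of 14 windows of mitosis genes (78.6%), 2 of 14 of replication genes (14.3%) and 0 of 10 of G1 and S control genes, against 19.2% of all windows. CCAAT boxes were in 92.9% of the windows of mitosis genes, 78.6% of those of replication genes and 30% of those of G1 and S control genes, against 37.4% of all. Among the other listed genes of the same pathways the groups differed less. E2F letters were in 55.6% of the windows of replication genes, 23.2% of those of mitosis genes and 42.9% of those of G1 and S control genes (12 of 28), and the CHR in 22.2%, 67.9% and 32.1% (9 of 28) of them. In Cdk1 the CHR letters start at positions -71 and -15, counted from the gene's start, and in Ccnb2 at -167 and 5. These matches describe the letters of the windows and were not tested against the expression values.

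**Figure D1:**
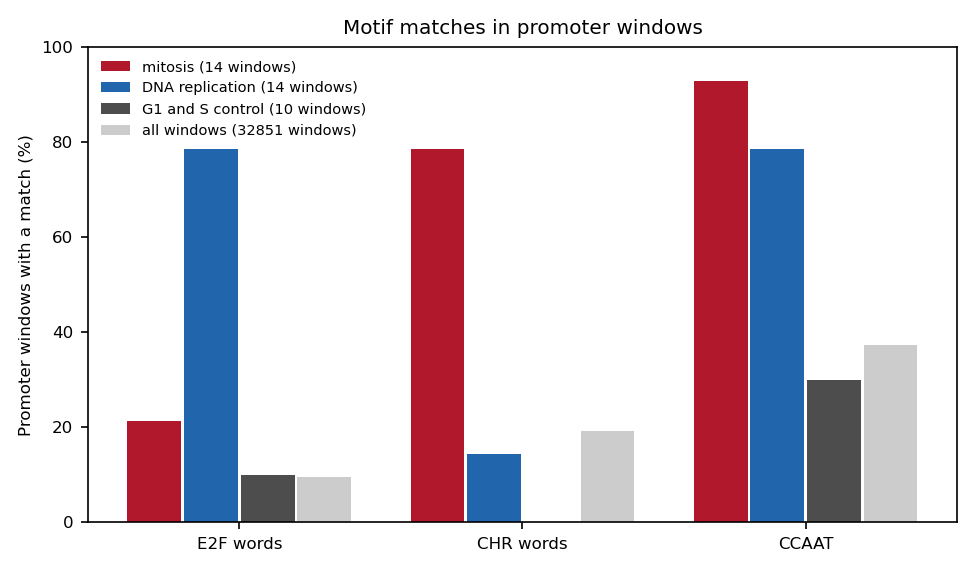
Share of promoter windows that hold the E2F, CHR or CCAAT letters, in percent, for the member groups and for all windows of the table. E2F letters were in 78.6% of the windows of replication genes and the CHR in 78.6% of those of mitosis genes, against 9.57% and 19.2% of all windows.

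Across the 6 ages 40 of the 44 members differed at an adjusted p under 0.05 by edgeR's quasi-likelihood test, where the background over all genes tested was 79.7%. The 40 comprised 18 of 18 mitosis genes, 13 of 14 replication genes and 9 of 12 genes of G1 and S control. Mean levels of 15 of the 18 mitosis genes and 10 of the 14 replication genes were highest at P5. So were those of 6 of the 12 genes of G1 and S control, of which the other 6 were highest at P7 (1), P10 (1), P15 (1), P21 (2) or P28 (1). The share of all genes tested that were highest at P5 was not computed, so these counts have no background. Levels are given as counts per M (CPM) after TMM scaling, which adjusts library totals so that most genes do not shift as a whole. Summed over the 18 mitosis genes, the mean was 161.7 ± 30.8 CPM at P5 and 130.8 ± 20.4 at P7. It was then 50.16 ± 7.59 at P10 and 49.59 ± 9.11 at P15, and last 43.2 ± 1.52 at P21 and 42.65 ± 0.209 CPM at P28 (SD, n = 5 at P5 and 3 at each other age). Smc2 was higher at P21 and P28 than at P15 and took a growing part of this sum. The sum therefore fell less in proportion than most of its genes. All P21 and P28 libraries were in batch C, so here and in the sum below, changes after P15 cannot be told apart from batch. The median log2 change of the 18 genes against P5 was -2.051 at P15 and -2.925 at P28. The sum of the 14 replication genes took another course, with 150.8 CPM at P5 and 136.1 at P7, then 119.8 at P10 and 126.1 at P15, and last 159.8 at P21 and 161.6 CPM at P28, and Mcm6 supplied most of the late increase.

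**Figure D2:**
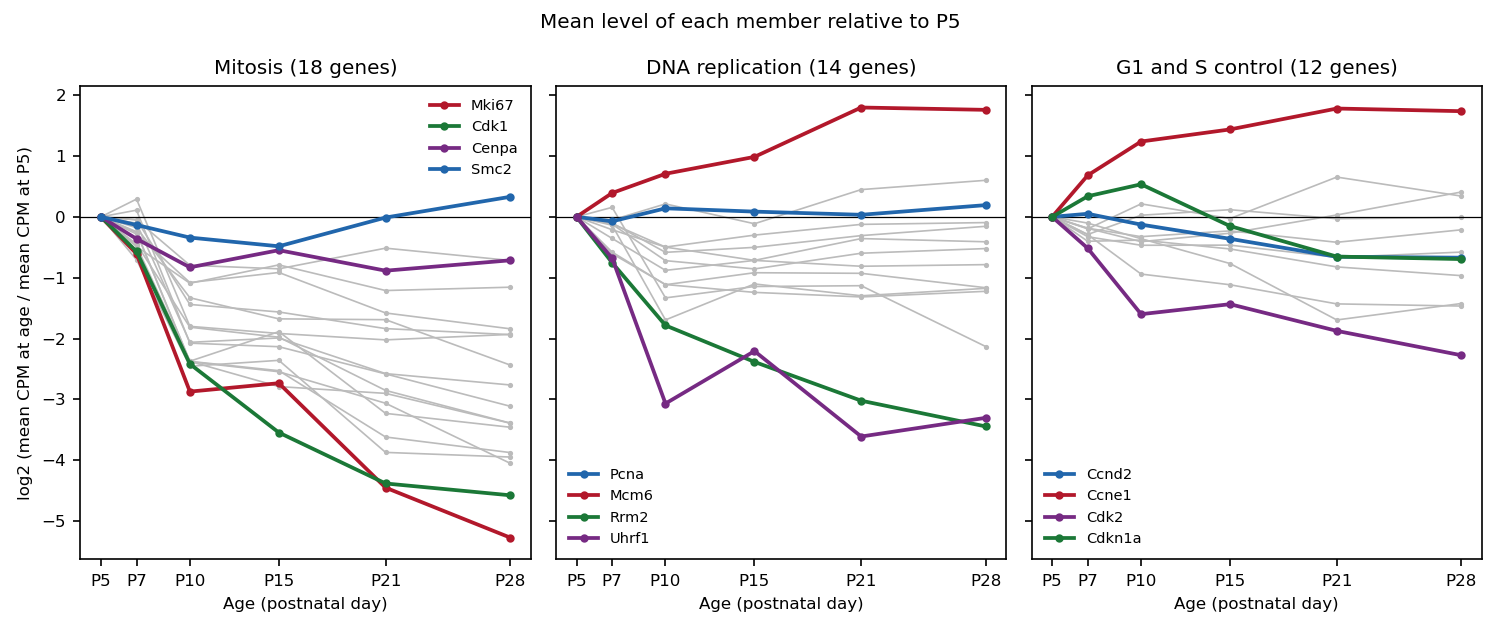
Mean level of each member at each age relative to P5, on a log2 scale, in 1 panel for each group of members; coloured lines are the genes named in the legends and grey lines the rest. Most mitosis genes dropped between P7 and P10, whereas Mcm6 and Ccne1 rose.

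Because 3 P5 libraries were in batch A with P10 and P15, these ages can be compared within that batch. The fit allowed for a difference between batches A and B. At P15 against P5, the longest span inside 1 batch, 36 of the 44 members fell and 2 rose, and 6 did not pass the test. Over all genes tested 31.8% fell and 31.6% rose. The median log2 change was -0.97 for the members and -0.021 for all genes tested. The members that fell comprised all 18 mitosis genes, 11 of 14 replication genes and 7 of 12 genes of G1 and S control. Fitted within batch A alone, 35 members fell and 2 rose. In bulk RNA, fewer dividing cells among those that were tagged and less of each mRNA per cell cannot be told apart.

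The mitosis genes moved in 1 direction and had the lowest median change of the 3 groups. Their log2 changes at P15 against P5 ran from -0.46 for Smc2 to -3.72 for Cdk1, with a median of -2.051. Of the 18, 14 fell at least 2-fold. The share of all genes tested that fell at least 2-fold was not computed, so this count has no background. Mki67 (chr7:135689784-135716361, minus strand, in mm10 coordinates of GENCODE vM21) encodes the Ki-67 protein that coats mitotic chromosomes and is the usual marker of cycling cells. Its level was 73.9, 50.5 and 56.7 CPM in P5 libraries of batch A and 25.9 and 51.4 in those of batch B, then 31.7, 28.2 and 41.9 at P7, 6.69, 9.27 and 5.24 at P10, 6.34, 5.68 and 11.3 at P15, 2.74, 1.55 and 2.81 at P21 and 1.43, 1.21 and 1.39 CPM at P28. The P7 libraries lay within the range of P5, every later library lay below it, and those of P10 and P15 were intermixed. Mki67 fell by 2.96 on the log2 scale at P15 against P5 (SE 0.31, adjusted p = 1.3e-06).

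Top2a (chr11:98992943-99024189, minus strand) encodes the topoisomerase that disentangles sister chromosomes. It stood at 18.9, 14.5, 16.2, 13.1 and 14 CPM at P5, with batch A first, then at 12, 12.3 and 14.3 at P7, 2.71, 3.97 and 2.17 at P10, 1.94, 2.17 and 3.79 at P15, 2.09, 1.71 and 1.72 at P21 and 1.21, 0.419 and 1.16 CPM at P28. Every library from P10 on was below all libraries of P5 and P7. The log2 change at P15 against P5 was -2.65 (SE 0.23, adjusted p = 9e-10). Reads of Top2a can be shared with Gm23451, which overlaps its exons on the same strand in GENCODE vM21.

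The cyclins and kinase that drive entry into mitosis followed the same course. Cdk1, the mitotic kinase (chr10:69335146-69352938, minus strand), had 5.12, 3.88, 4.31, 2.44 and 3.55 CPM at P5, 2.39, 2.09 and 3.34 at P7, 0.663, 1.02 and 0.482 at P10, 0.576, 0.206 and 0.211 at P15, 0.239, 0.214 and 0.104 at P21 and 0.329, 0.157 and 0 CPM at P28. In the P28 libraries 3 counts correspond to 0.157 to 0.174 CPM, so the last values lie at or near that limit. Its log2 change at P15 against P5 was -3.72 (SE 0.40, adjusted p = 1.9e-08). Ccna2, the cyclin A2 of S phase and G2, had 2.15, 1.7 and 1.68 CPM at P15, against 9.44, 9.43 and 7.4 in the P5 libraries of batch A and 4.97 and 5.08 in those of batch B. It fell by 2.24 on the log2 scale (SE 0.22, adjusted p = 4e-09). Ccnb1, a cyclin B that activates CDK1, had 0.524, 0.516 and 0.368 CPM at P15 and 3.68, 3.47, 2.97, 1.62 and 1.78 CPM at P5. In both cyclins the P5 libraries of batch B were the lowest of their age and still stood above every library of P15.

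Genes of the spindle and of anaphase fell as well. Tpx2, which builds spindle microtubules and activates Aurora A, had 1.94, 2.37 and 3.16 CPM at P15, against 11.9, 9.08, 9.49, 8.89 and 10.1 CPM at P5, and fell by 2.02 on the log2 scale (SE 0.20, adjusted p = 3.6e-09). Cdc20, the activator of the anaphase-promoting complex, had 0.786, 1.19 and 1.32 CPM at P15, against 5.47, 4.11, 4.37, 3.25 and 3.06 CPM at P5, and fell by 2.08 (SE 0.25, adjusted p = 7.6e-08). The libraries of the ages did not overlap in either gene. The kinases Aurkb, Bub1 and Plk1, the motor Cenpe and the survivin gene Birc5 changed by -2.62, -3.09, -1.80, -1.80 and -1.82 on the log2 scale, while Aurka and the centromeric histone gene Cenpa changed by -0.84 and -0.81. Cdk1, Ccnb1, Ccnb2, Aurkb and Bub1 had 3 counts or fewer in 1 to 4 libraries each, so that their lowest values are not distinguishable from 0.

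Condensin subunits compact chromosomes, and Smc2 was the least changed of the group at P15 against P5. Its partner Smc4 changed by -0.94 at P15 against P5 (SE 0.13, adjusted p = 1.1e-06). Smc2 (chr4:52439243-52488260, plus strand) had 13.8, 14.5, 15.1, 15.4 and 14.6 CPM at P5, 14, 11 and 15.1 at P7, 10.9, 12.2 and 11.7 at P10, 9.01, 10.9 and 11.6 at P15, 14, 15.4 and 14.2 at P21 and 16.6, 19.3 and 19.4 CPM at P28. Smc2 was lowest at P15 and highest at P28, where every library exceeded those of P5. The log2 change was -0.46 at P15 against P5 (SE 0.12, adjusted p = 0.0015) and 0.35 at P28 against P5 (SE 0.11, adjusted p = 0.0085).

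**Figure D3:**
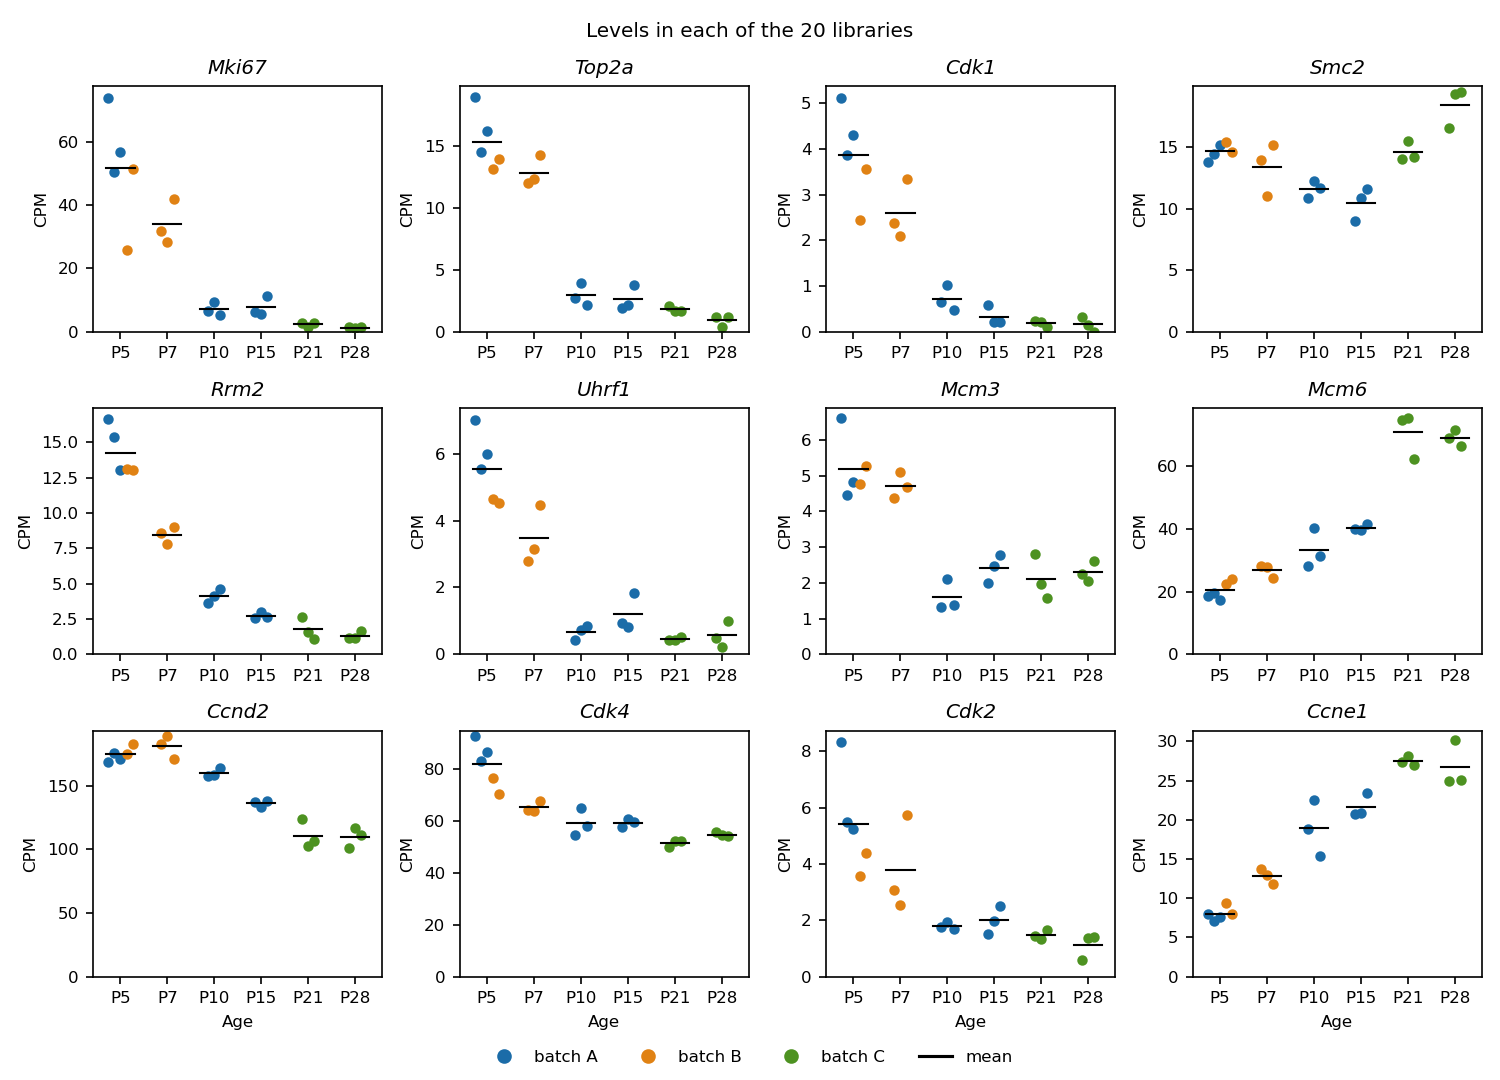
Level of selected members in each of the 20 libraries, in CPM, by age; points are libraries coloured by batch and black lines are the mean of an age. Mki67, Top2a and Cdk1 are low from P10 on, while Mcm6 and Ccne1 are highest at P21 and P28.

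Replication genes changed less and not in 1 direction. Of the 14, 11 fell at P15 against P5, with log2 changes from -0.31 for Mcm4 to -2.46 for Rrm2. Of these 11, 5 fell at least 2-fold, a count that has no background either. Mcm6 alone rose, and Pcna and Gmnn did not pass the test. The genes that fell furthest were Rrm2, the small subunit of ribonucleotide reductase that makes deoxynucleotides in S phase, and Uhrf1, which guides the copying of DNA methylation. Rrm2 (chr12:24708241-24714146, plus strand) had 16.6, 15.4, 13, 13.1 and 13 CPM at P5, 8.56, 7.81 and 8.99 at P7, 3.62, 4.16 and 4.64 at P10, 2.57, 2.99 and 2.63 at P15, 2.62, 1.55 and 1.09 at P21 and 1.15, 1.15 and 1.62 CPM at P28. Rrm2 was already lower at P7, without overlap with P5, and was the only member that fell in that step (log2 change -0.63, SE 0.18, adjusted p = 0.025). That call was lost without either P5 library of batch B and without P7 replicate 1 or 2 (adjusted p = 0.064 to 0.16). The log2 change of Rrm2 at P15 against P5 was -2.46 (SE 0.19, adjusted p = 2.9e-11).

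Rrm1, the large subunit of the same enzyme, changed by -0.62 (SE 0.11, adjusted p = 1.8e-05), with 12.8, 12.6 and 12.6 CPM at P15, against 18.4, 19.4, 20.8, 21.4 and 24 CPM at P5. All P15 libraries were below all P5 libraries. Per kb of exon, Rrm2 stood at 0.9854 CPM at P15 and 5.138 at P5, and Rrm1 at 1.15 CPM at P15 and 1.888 at P5. On that scale Rrm2 was the higher of the pair at P5 and the lower at P15. In CPM not divided by length, Rrm1 was the higher at both ages. The scale rests on 11012 bases of exon for Rrm1 and 2771 for Rrm2. Uhrf1 (chr17:56303321-56323486, plus strand) had 7.02, 5.55, 6, 4.63 and 4.54 CPM at P5 and 2.79, 3.15 and 4.47 at P7, and later 0.417, 0.428 and 0.52 at P21 and 0.494, 0.21 and 0.986 CPM at P28. It averaged 1.2 ± 0.556 CPM at P15 (n = 3) and 5.55 ± 1.03 CPM at P5 (SD, n = 5), and fell by 2.36 on the log2 scale (SE 0.30, adjusted p = 3e-07). The libraries of Uhrf1 at P10 had 0.422, 0.723 and 0.843 CPM, which overlapped those of P15 at 0.943, 0.826 and 1.84 CPM, and P15 against P10 did not pass the test (log2 change 0.85, adjusted p = 0.23).

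The factors that load the MCM ring were low at every age. Cdt1 and Cdc6 changed by -1.41 (SE 0.29, adjusted p = 0.00016) and -1.20 (SE 0.47, adjusted p = 0.03) at P15 against P5, and Cdc6 had 3 counts or fewer in 3 libraries. Tyms, which makes thymidylate, fell as well (adjusted p = 0.0019), with 2.31, 3.1 and 2.26 CPM at P15, against 4.83, 4.92, 5.59, 4.3 and 4.49 CPM at P5. Gmnn encodes geminin, the inhibitor of CDT1. It had between 0.405 and 1.71 CPM in all libraries and did not pass the test over the ages (adjusted p = 0.51). Without P5 replicate 3 of batch A, Gmnn was called higher at P28 against P5 (log2 change 1.08, adjusted p = 0.037). Pcna, the sliding clamp that also serves DNA repair, averaged 30 ± 1.48 CPM at P15 and 28.3 ± 1.34 CPM at P5 (log2 change 0.13, SE 0.07, adjusted p = 0.12). Pcna, Tyms, Ccnd3, Ccnb1 and Ccnb2 have named pseudogene copies, with which reads could have been split.

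The 6 subunits of the MCM ring did not keep a common course. Log2 changes at P15 against P5 were -1.13 for Mcm3 (SE 0.22, adjusted p = 8.3e-05), -0.92 for Mcm2, -0.79 for Mcm7, -0.58 for Mcm5 and -0.31 for Mcm4 (adjusted p = 0.013), all of which passed the test. Mcm6 (chr1:128331590-128359664, minus strand) went the other way. Its level was 18.7, 19.7, 17.2, 22.5 and 24 CPM at P5, 28.2, 27.9 and 24.2 at P7, 28.2, 40.3 and 31.5 at P10, 40, 39.6 and 41.5 at P15, 74.9, 75.5 and 62.2 at P21 and 69.1, 71.6 and 66.4 CPM at P28. Every library from P7 on exceeded all libraries of P5, and those of P21 and P28 stood apart above the rest. The log2 change of Mcm6 was 1.12 at P15 against P5 (SE 0.10, adjusted p = 2.3e-09) and 1.90 at P28 against P5 (SE 0.10, adjusted p = 1e-13).

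Per kb of exon, the level of Mcm6 at P28 was 14.79 CPM, against 3.601 for Mcm4, 2.339 for Mcm7, 1.677 for Mcm5, 0.8448 for Mcm2 and 0.6133 for Mcm3 at that age. At P5 the 3 highest were closer, with 4.374 CPM per kb for Mcm6, 4.03 for Mcm7 and 3.844 for Mcm4. Mcm3, the lowest per kb at P28, had 1.99, 2.48 and 2.79 CPM at P15, against 6.62, 4.45, 4.83, 4.78 and 5.28 CPM at P5. Mcm7 had 8.85, 10.9 and 12.8 CPM at P15, against 21.2, 17.5, 17.8, 15.4 and 17.3 CPM at P5, with no overlap. At P28 against P5, Mcm3, Mcm7 and Mcm2 were still lower (log2 changes -1.21, -0.86 and -0.59), while Mcm5 (-0.24, adjusted p = 0.15) and Mcm4 (-0.10, adjusted p = 0.39) did not pass the test. Reads of Mcm7 can be shared with the microRNA genes Mir25 and Mir93 inside it. Levels per kb use the union of a gene's exons in GENCODE vM21, which need not be the annotation the authors counted on. That union can be longer than any single transcript, so the order of genes per kb depends on it.

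**Figure D4:**
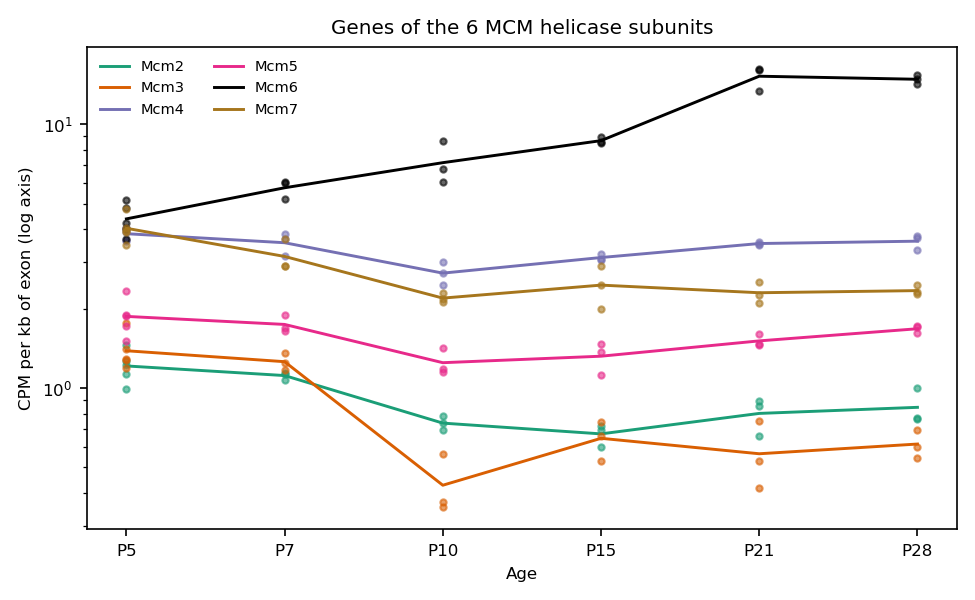
Level of the 6 MCM helicase genes in CPM per kb of exon, on a log axis, by age; points are libraries and lines join the mean of each age. Mcm6 climbs to 14.79 CPM per kb at P28, while Mcm3 stands at 0.6133 there.

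Genes of G1 and S control gave the most mixed picture. At P15 against P5, 7 of the 12 fell, by 0.28 for Ccnd3 to 1.67 for Cdk2 on the log2 scale, Ccne1 rose and 4 did not pass the test. Ccne1 (chr7:38097984-38107534, minus strand), the cyclin E1 that pairs with CDK2, had 8.06, 7.12, 7.63, 9.36 and 7.95 CPM at P5, 13.7, 13 and 11.9 at P7, 18.8, 22.5 and 15.4 at P10, 20.7, 20.9 and 23.5 at P15, 27.4, 28.2 and 27 at P21 and 24.9, 30.2 and 25 CPM at P28. The libraries of P7 already lay above all of P5, those of P10 above all of P7, and those of P21 above all of P15. Ccne1 was the only member that rose at P7 against P5 (log2 change 0.57, SE 0.14, adjusted p = 0.0072, but 0.11 without P5 replicate 3 of batch B), and at P15 against P5 the change was 1.51 (SE 0.12, adjusted p = 8.3e-11). Its paralog Ccne2 had 1.39 to 3.76 CPM over all libraries and did not pass the test over the ages (adjusted p = 0.11).

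Cdk2, the kinase that cyclin E activates, moved against Ccne1. It had 1.52, 1.96 and 2.53 CPM at P15, against 8.34, 5.5 and 5.24 CPM in P5 libraries of batch A and 3.58 and 4.39 in those of batch B, and fell by 1.67 on the log2 scale (SE 0.29, adjusted p = 1.9e-05). The ages did not overlap. E2f1, an activator of S phase genes, had 12.1, 10.2, 10.2, 8.5 and 10.6 CPM at P5, 9.06, 10.3 and 9.44 at P7, 8.8, 6.68 and 8.61 at P10, 6.29, 6.04 and 5.84 at P15, 3.94, 2.08 and 3.54 at P21 and 4.72, 3.04 and 3.77 CPM at P28. The libraries of P15 lay below all of P10, but P15 against P10 did not pass the test for E2f1. Those of P21 lay below all of P15, a step that sets batch C against batch A and was not tested. The call of E2f1 at P10 against P5 was lost with no batch term (adjusted p = 0.0537). It was also lost without P5 replicate 1 of batch A (adjusted p = 0.125) or P10 replicate 2 (adjusted p = 0.135). Against P5, E2f1 fell by 0.84 at P15 (SE 0.17, adjusted p = 0.00017) and by 1.49 at P28. Rb1 (chr14:73183673-73325822, minus strand), which restrains E2F factors, had 36.9, 34.7 and 34.6 CPM at P15, against 58.6, 59.6 and 56.6 CPM in P5 libraries of batch A and 39.2 and 41.1 in those of batch B. Its log2 change was -0.72 (SE 0.08, adjusted p = 9.5e-09), and it also differed between batches at the same age.

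D-type cyclins start the phosphorylation of RB1 in G1. Ccnd2 (chr6:127125162-127152193, minus strand), the D-type cyclin that adult hippocampal neurogenesis needs in mice, had 169, 176, 171, 175 and 183 CPM at P5, 183, 189 and 171 at P7, 158, 158 and 164 at P10, 137, 133 and 138 at P15, 124, 103 and 107 at P21 and 101.1, 117 and 111 CPM at P28. P5 and P7 overlapped, and each of P10 and P15 lay below the age before it. Ccnd2 was the only member called at P15 against P10 (log2 change -0.23, SE 0.06, adjusted p = 0.035). That call was lost with no batch term, with the replicate block and without P10 replicate 1 or 3 or P15 replicate 2 or 3 (adjusted p = 0.055 to 0.18). Its change was -0.34 at P15 against P5 (SE 0.06, adjusted p = 5.8e-05). Ccnd3 changed by -0.28 (SE 0.09, adjusted p = 0.013), with 18.5 ± 1.88 CPM at P15 and 21.7 ± 1.39 CPM at P5. At P28 against P5, Ccnd2 fell by 0.65 (SE 0.06, adjusted p = 2.3e-09). Ccnd1 ranged widely within ages, at 23.4 ± 5.67 CPM at P15 and 28.2 ± 4.87 CPM at P5, and did not pass the test over the ages (adjusted p = 0.069). Per kb of exon the mean of Ccnd2 at P28 was 11.67 CPM, against 18.58 at P5.

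Cdk4 had 57.7, 60.7 and 59.4 CPM at P15, against 92.5, 82.9 and 86.6 CPM in P5 libraries of batch A and 76.4 and 70.3 in those of batch B, and fell by 0.56 on the log2 scale (SE 0.06, adjusted p = 2.2e-08). Cdk6 fell too (adjusted p = 3.6e-05), with 2.99, 2.63 and 5.32 CPM at P15, against 6.91, 8.45, 8.04, 7.45 and 8.64 CPM at P5. Of the CDK inhibitors, Cdkn1b had 55.9, 56.2 and 55.8 CPM at P15, against 56.7, 53.9 and 57.8 CPM in P5 libraries of batch A and 45.1 and 44.4 in those of batch B, and did not pass the test there. Cdkn1a, the inhibitor induced by p53, was called at P10 against P5 (log2 change 0.75, SE 0.25, adjusted p = 0.017), but not in the fit within batch A (0.74, adjusted p = 0.066), with no batch term (0.53, adjusted p = 0.054) or without P5 replicate 3 of batch A, P10 replicate 1 or P10 replicate 3 (0.64, 0.52 and 0.63). Its P10 libraries at 21.2, 9.51 and 18.8 CPM overlapped those of P5 at 9.44, 11.7, 8.27, 13.4 and 14.1 CPM. Cdkn1a at P15 against P5 did not pass the test (log2 change 0.06, adjusted p = 0.85).

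**Figure D5:**
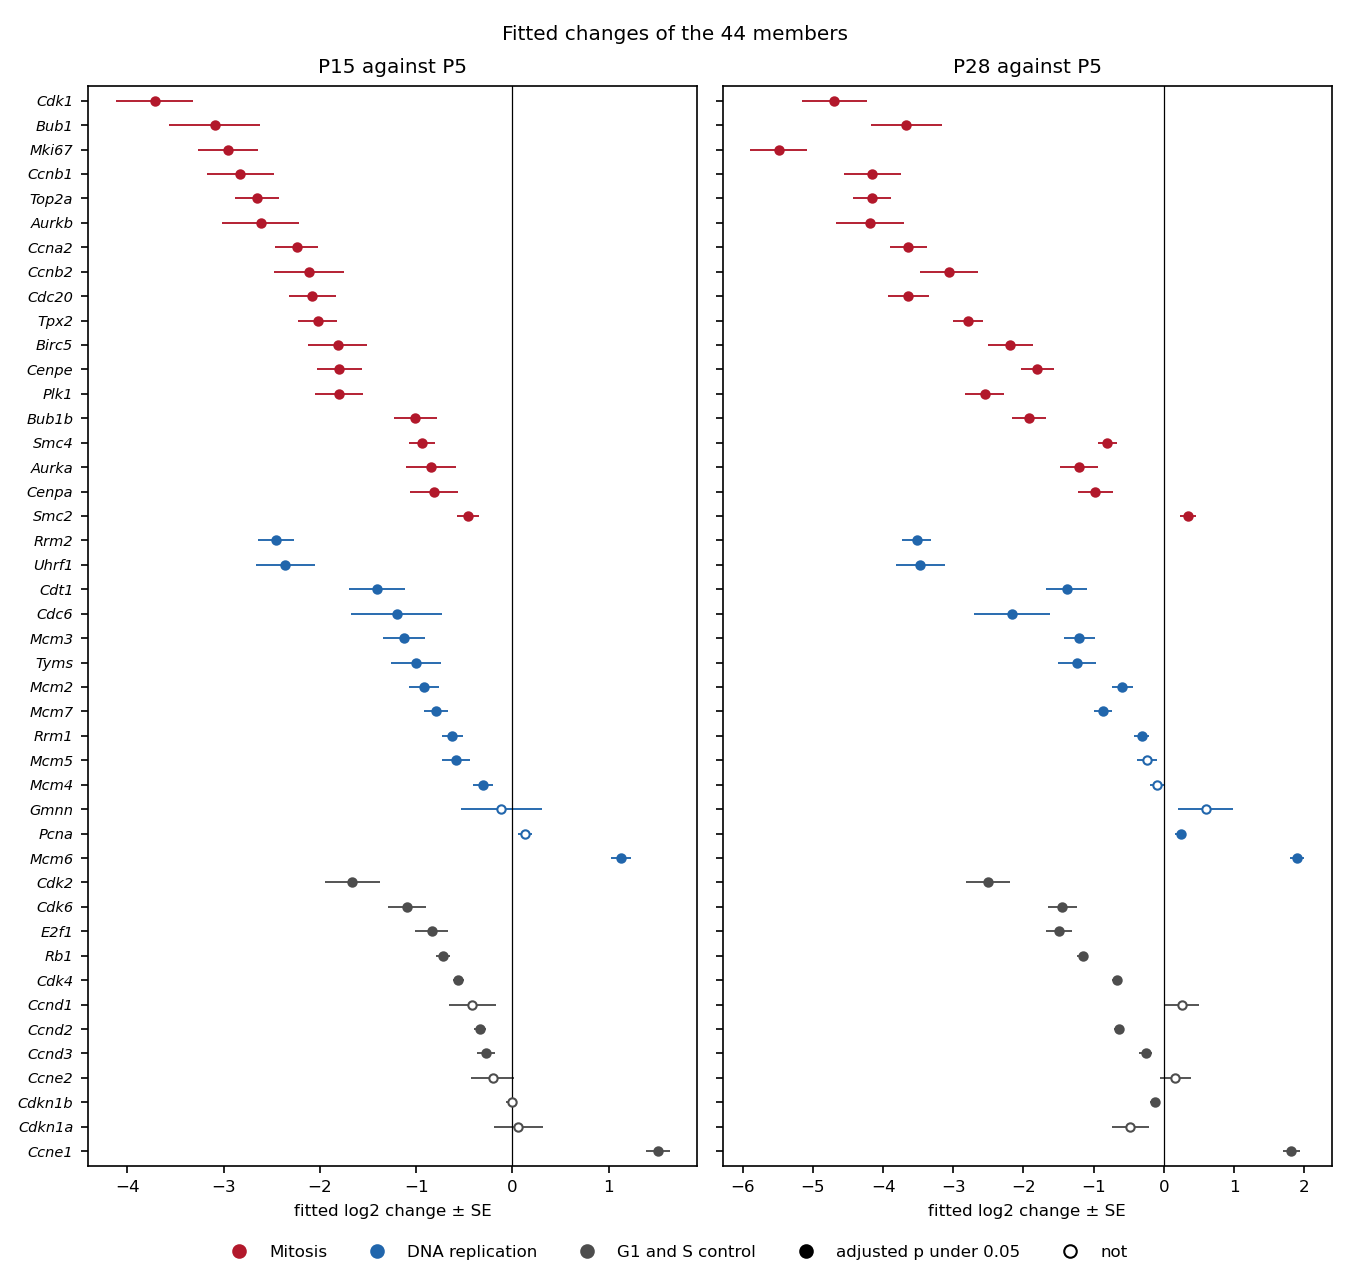
Fitted log2 change of each of the 44 members at P15 against P5 and at P28 against P5, with its SE, ordered within groups; filled points passed the adjusted p threshold of 0.05. Mcm6 and Ccne1 lie to the right at both ages, and Smc2 does so at P28.

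Taken by steps, most members changed between P7 and P10. At P7 against P5, 1 member rose and 1 fell, with a background of 6.15% higher and 4.89% lower. DESeq2 called 3 members in that step and 4 had an unadjusted p under 0.05, and with total counts in place of TMM 1 rose and 4 fell. At P10 against P7, 26 members fell and 3 rose, against a background of 20.3% lower and 22.5% higher, and the mitosis genes had a median log2 change of -2.153, with 16 of 18 called. This step sets libraries of batch A against those of batch B and rests on the batch term, while P10 against P5, which has libraries in batch A, gave 35 members lower and 4 higher with a background of 30.6% and 30.8%. All 18 mitosis genes were called lower there, though Smc2 lost its call without P5 replicate 3 of batch A (adjusted p = 0.072) or without P10 replicate 1 (adjusted p = 0.079). Mcm6 and Ccne1 rose. Pcna and Cdkn1a were the other 2 called higher, and neither call held under all alternatives. The log2 change of Pcna was 0.18, against 0.05 with total counts (adjusted p = 0.55), and its call was also lost with DESeq2 (adjusted p = 0.064), with no batch term and without P5 replicate 1 or 2 of batch A or P10 replicate 1 or 2.

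After P10 little passed the test in the steps that lie inside a batch. The step from P15 to P21, which sets batch C against batch A, was not tested. At P15 against P10, 1 member fell, with a background of 2.52% lower, DESeq2 called 2, and 8 had an unadjusted p under 0.05. At P28 against P21, 0 members were called by edgeR's quasi-likelihood test and 0 by DESeq2, 5 had an unadjusted p under 0.05, and the background was 0.254%. At P28 against P5, 34 members fell and 4 rose, with a background of 36.4% lower and 35.2% higher, and the 4 were Mcm6, Ccne1, Pcna and Smc2. With total counts in place of TMM, Pcna (log2 change 0.11, adjusted p = 0.16) and Smc2 (0.23, adjusted p = 0.10) did not pass, nor did Pcna without P28 replicate 1 (adjusted p = 0.052). Of the members that fell, Cdkn1b (-0.13) lost its call with DESeq2 (adjusted p = 0.061), with no batch term (-0.009, adjusted p = 0.92) and in several other fits. Ccnd3 lost its call without P5 replicate 1 of batch A (adjusted p = 0.068). The median log2 change of the mitosis genes there was -2.925, against -2.051 at P15 against P5, both measured against the same P5 libraries. Mki67 reached -5.49 (SE 0.40, adjusted p = 1.6e-08). All P21 and P28 libraries were in batch C, so that age and batch cannot be told apart in any comparison of P21 or P28 with an earlier age.

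Other genes of the same pathways, listed by role, were examined beside the members. Of 121 listed, 117 were tested. At P15 against P5, 86 fell and 10 rose, with a background of 31.8% lower and 31.6% higher over all genes tested. The median log2 change was -1.221, against -0.021 for all genes tested. By role, 51 of 58 mitosis genes fell and 2 rose, 23 of 37 replication genes fell and 4 rose, and 12 of 22 genes of G1 and S control fell and 4 rose. Tk1, the thymidine kinase of S phase, changed by -3.43 and Ticrr, which helps origins to fire, by -3.34, while Dbf4, the partner of the kinase CDC7, changed by -1.80. Cdkn2c, an inhibitor of CDK4 and CDK6, and Cks1b, a CDK subunit, changed by -2.21 and -1.28.

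Single genes of these lists rose. Wee1, the kinase that holds CDK1 inactive, had 14.7, 13.1 and 12.5 CPM at P15, against 3.8, 3.3, 2.85, 3.58 and 2.76 CPM at P5, a log2 change of 2.02 (SE 0.15, adjusted p = 2.9e-11). Tfdp2, a partner of E2F factors in DNA binding, had 22.5, 23.1 and 24.8 CPM at P15, against 11.9, 11.9, 11.1, 10.3 and 12.9 CPM at P5, a log2 change of 1.01 (SE 0.10, adjusted p = 1.5e-09). Neither gene's libraries overlapped between these ages.

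Cenpf, which encodes a large protein of the kinetochore and nuclear matrix, stood apart in level. It had 5296, 4684, 4562, 4572 and 5032 CPM at P5, 1444, 1708 and 2102 at P7, 271.9, 341.9 and 280 at P10, 167.4, 160.9 and 143.3 at P15, 78.95, 50.62 and 50.27 at P21 and 47.72, 42.63 and 48.47 CPM at P28. Libraries of each age lay below all of the age before. Per kb of exon Cenpf stood at 312.9 CPM at P5, against 5.137 for Mki67 and 1.703 for Top2a. The log2 change of Cenpf was -1.46 at P7 against P5 (SE 0.18, adjusted p = 0.00014), a step in which Mki67 did not pass the test (log2 change -0.18, adjusted p = 0.77). At P15 against P5 Cenpf fell by 4.95 on the log2 scale (SE 0.19, adjusted p = 6.2e-12). Lmnb1, the lamin B1 gene, also fell in that first step (log2 change -0.76, SE 0.09, adjusted p = 1.3e-05).

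Markers of the labelled cell type and of most other cells listed moved between P5 and P15 too, and their part in the results above was not tested. Over all genes tested, the background at P15 against P5 was 31.8% lower and 31.6% higher. The summed level of 6 granule cell markers was 1968 to 2070 CPM at P15 and 1297 to 1468 CPM at P5, with 4 of 6 higher. For 6 newborn neuron markers it was 195.6 to 216 CPM at P15 and 1042 to 1367 at P5, with 6 of 6 lower. For 10 markers of neural stem and progenitor cells it was 223.8 to 313.7 CPM at P15 and 396.4 to 532.7 at P5, with 8 lower and 1 higher. For 6 endothelial markers it was 17.03 to 23.1 CPM at P15 and 41.95 to 79.21 at P5, with 6 lower. For 6 markers of oligodendrocyte precursors it was 87.13 to 133.3 at P15, which overlapped the 96.84 to 177.3 at P5, with 4 lower and 1 higher. No marker of these 5 lists was at 0 in any library.

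Oligodendrocyte markers rose, to 969.3 to 1707 CPM at P15 against 80.89 to 99.32 at P5, with 6 of 6 higher, and 2 of the 6 were at 0 in some library. The summed astrocyte markers were 1037 to 1271 CPM at P15 and 452.6 to 491.6 at P5 (3 higher, 1 lower). Most of that sum came from Slc1a2, and the median log2 change of the astrocyte markers was 0.384. The microglia markers were 26.56 to 39.94 at P15 and 19.27 to 23.88 at P5 (4 higher). The interneuron markers were 250.4 to 301.9 at P15 and 143.6 to 168.9 at P5 (5 higher, 1 lower, 1 gene at 0 in some library). The markers of CA pyramidal cells overlapped between the ages, with 313 to 483.6 at P15 and 298 to 500.1 at P5 (1 higher, 1 lower). At P10 their sum differed widely between libraries, at 843.3, 284.1 and 683.8 CPM, and its part in the results at P10 was not tested. Among the P5 libraries, replicate 1 of batch A was the highest in 13 of the 18 mitosis genes and in 8 of the 14 replication genes. Without it 33 members fell and 2 rose at P15 against P5. Between batches at the same age, 4 members were lower in batch B than in batch A (Cdk4, Rb1, Cdkn1b and Ccna2), with a background of 3.42%.

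Total counts were 15.9 to 24.9 M per library and the member genes took 0.0514% to 0.092% of them. At this depth 3 counts correspond to 0.122 to 0.181 CPM, under which a level is not distinguishable from 0. This limit includes counting error only. Exons of 13 members overlap those of a gene on the opposite strand, and whether the counting used strand is not given in the sources used here.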

How the data were processed

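Poly-adenylated RNA bound to HA-tagged ribosomes of mouse hippocampus was sequenced, per the labels, with a stranded kit. Reads were processed against the mm10 build with STAR 2.7.5b, SAMtools 1.10 and featureCounts, per the submitters' processing notes. The authors deposited raw counts per gene symbol, with no normalization. The version of featureCounts, its annotation, its strand setting and its handling of multimapping reads were not given in the sources used here.

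The deposited counts of all 20 libraries were fitted with edgeR 4.0.16 in R 4.3.3, with TMM factors, filterByExpr by age (15373 of 32245 symbols left, 8790 being 0 in every library), the robust quasi-likelihood test and Benjamini-Hochberg adjustment over all genes tested, with a threshold of 0.05. Terms were the 6 age means and the difference between batches A and B, with 13 residual degrees of freedom, and the biological coefficient of variation was 8.46%. Changes at P10 or later against P5 therefore rest on batch A and those at P7 on batch B, while means at P5 are over all 5. A log2 change is that of the later age over the earlier one, and its SE was taken from the change and the F statistic. The model was tested on simulated counts.

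Every pair of libraries within an age differed by more than sampling noise (3.7 to 40.7 as chi-square over its degrees of freedom), and each was used as 1 sample. Libraries with the same replicate number did not deviate together, so the numbers were not used as pairs.

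Coordinates and exon lengths are from GENCODE vM21, which held 31424 of the symbols (97.5%). Promoter windows and their sequences are from RefSeq, build GRCm38.p6. Members and lists were chosen with earlier results of these data known. Values by library or by age are given for the 6 members of each group with the smallest p over the ages, those called against their group's majority at P15 or P28 against P5, and the D-type cyclins. Of the other pathway genes, those with the smallest p in each role are named. Mki67, Cdkn1a, Cdkn1b, Cdk6 and Tyms, given by library as well, and the comparison of P10 with P7 were chosen after their values were seen.

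Alternatives were total counts or size factors of the DESeq2 type, no filter or at least 1 CPM in 3 libraries, DESeq2 1.42.0, the replicate number as a block, no batch term, leaving the batch B libraries of P5 out, fits within a batch, and each library left out.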

Additional observations from a re-analysis of the deposited data

Results flagged for a closer look

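Plk1, which encodes a kinase of mitotic entry and spindle formation, had 4.49 CPM in P5 replicate 1 of batch A, against 2.77 to 3.2 CPM in the other 4 P5 libraries. The gap to its nearest neighbour was 0.748 of the whole range, above the 0.71 that Dixon's criterion allows for 5 samples. It was the only one of the 44 members with such a library at P5, and chance gives about 1 in 20 groups. The same library was the highest of its age in 13 of the 18 mitosis genes. Without it 33 members were lower and 2 higher at P15 against P5, against 36 and 2 with it.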

How the results depend on the processing

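At P15 against P5, 2 members were higher and 33 to 36 lower under all alternatives run. Leaving out 1 library at a time gave 38 to 41 members differing between ages, 35 to 38 called at P15 against P5 (33 to 36 lower, 2 to 2 higher), 36 to 39 at P10 against P5 (33 to 35 lower, 2 to 4 higher), 36 to 38 at P28 against P5 (32 to 34 lower, 3 to 5 higher), 25 to 29 lower and 3 to 4 higher at P10 against P7, 0 to 2 at P7 against P5 (0 to 1 in each direction), 0 to 3 at P15 against P10 (0 to 2 lower, 0 to 1 higher) and 0 to 0 at P28 against P21. At P15 against P5, calls were lost for Mcm4 without P5 replicate 3 of batch A (adjusted p = 0.05), Aurka without P5 replicate 1 of batch A (log2 change -0.56, adjusted p = 0.086), Cenpa with no batch term (-0.54, adjusted p = 0.080), and Cdc6 and Ccnd3 in several fits. The cause was not tested.

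At P7 against P5, 5 members were called with total counts (4 lower), 7 with no batch term (2 higher, 5 lower) and 15 without the P5 libraries of batch B (2 higher, 13 lower, among them Mki67 with -0.83), which sets batch B against batch A. The lower count there was 2 with the filter of at least 1 CPM, with DESeq2 and with the replicate block. At P15 against P10 the calls were 2 with DESeq2, 0 with no batch term and 0 with the replicate block. With no batch term 2 members were higher at P10 against P5, and with total counts 2 were higher at P28 against P5. With the replicate number as a block, 40 members differed between ages, and 39, 38 and 37 were called at P10, P15 and P28 against P5. Over 57 pairs of libraries with the same number, the correlation of deviations lay between -0.256 and 0.248, and 7 exceeded 0.1.

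Without P5 libraries of batch B, Ccna2 changed by -0.71 and Ccnb1 by -0.93 at P7 against P5. At P10 against P7, Rb1 changed by 0.019 with no batch term and 0.017 without those libraries, and Cdkn1b by 0.32 and 0.31. These signs are opposite to those of the fit with the batch term. Over all genes, the median log2 change at P15 against P5 was -0.142 with total counts and -0.021 with TMM. P28 against P5 has no fit within 1 batch. Depth limits Cdc6, Ccnb1, Ccnb2, Cdk1, Aurkb and Bub1, which had 3 counts or fewer in some libraries.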
